A study of Rattus norvegicus with 12 samples.

Results

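The effect of maternal fasting on the RNA carried by polysomes was measured in fetal rat liver by setting 3 polysome arrays from fasted dams against 3 polysome arrays from fed dams, 6 of the 12 arrays of the study. Membership followed the labels alone: an array belonged if its label named the polysome fraction, and its diet was the one the label gave. All animals were Sprague Dawley rats, and all livers were taken from fetuses at day 19 of gestation, with term at 21 days. Fed dams ate freely. Fasted dams went without food for 48 hr, beginning on day 17, as a model of restricted fetal growth. The other 6 arrays held total liver RNA, 3 from each diet, and entered the fit as well. The samples are labelled biological replicates, from 3 dams per diet, but the polysome RNA came from pooled preparations and what was pooled is not stated. The p-values therefore measure the spread between these arrays.

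Polysomes are messages loaded with several ribosomes, and they are separated from free messages by centrifugation through a sucrose gradient. The RNA found there is that being translated, so its composition depends both on how much of a message a cell holds and on how much of it is engaged by ribosomes. The fetal liver makes blood cells as well as hepatocytes, and it lives on glucose and amino acids delivered across the placenta. In a liver short of glucose and insulin, fatty acid synthesis is turned down, fatty acid oxidation and glucose production are turned up by regulators such as PPARA and the FoxO factors, and the growth kinase mTORC1 is restrained.

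Each array gave 28826 probe intensities, with medians between 101.3 and 108.3, and across all probes polysome arrays of the same diet correlated at 0.9914 to 0.9961, against 0.9917 to 0.9948 for fed against fasted. The number of arrays limits the precision. All 7 defining markers of hepatocytes and hepatoblasts were measured on the polysomes, and their summed intensity was 70840 to 75680 in fed and 73150 to 74480 in fasted arrays. Alb, the serum albumin gene, measured 13.95 log2 in both diets, and Afp, the fetal alpha-fetoprotein, 13.57 in fed and 13.63 in fasted arrays. Erythroid markers summed to 44610 to 45970 in fed and 44360 to 44520 in fasted arrays. Fed polysome 1 and fasted polysome 2 lay farthest from their group means, with spreads of 0.144 and 0.128 log2 over genes against 0.0985 to 0.127 in the other polysome arrays. In bulk RNA of this kind, fewer cells of a type and less RNA per cell cannot be told apart.

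After fasting, 4 of 36 tested genes of fatty acid oxidation, 4 of 17 of bile acid synthesis and transport and 7 of 44 of autophagy were among those that rose on polysomes. Those that fell included 7 of 27 genes of fatty acid synthesis and 3 of 46 heat shock chaperones. Of 8698 genes tested, 318 passed the threshold of an adjusted p of 0.05 in limma, a share of 3.66%. Of these, 227 were higher after fasting (2.61% of genes tested) and 91 lower (1.05%). The number called in each list below stands beside these shares of all genes. Changes were mostly modest. At least 1.5-fold differences were seen for 47 of the higher and 6 of the lower genes, and at least 2-fold differences for 7 and 1, the last being Scd. The median change was 0.44 log2 among the higher calls and -0.36 among the lower ones, against 0.02 over all genes tested, where the median standard error (SE) was 0.092. All changes are on the log2(intensity + 1) scale as fasted minus fed, with the SE of the limma fit and 3 arrays per group. In 315 of the 318 genes the 3 fasted arrays all lay on 1 side of the 3 fed arrays, which held for 22.5% of all genes tested (13.3% with all fasted arrays higher, 9.23% with all lower). The exceptions were Creg1, Shoc2 and Glyatl2. Higher calls made up 71.4% of the 318, and 84.7% (216 higher, 39 lower) when each array was centred on its median. With quantile normalization they made up 63.3% (202 higher, 117 lower). Many named falls lost their call with centred arrays, as listed further on.

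**Figure D1:**
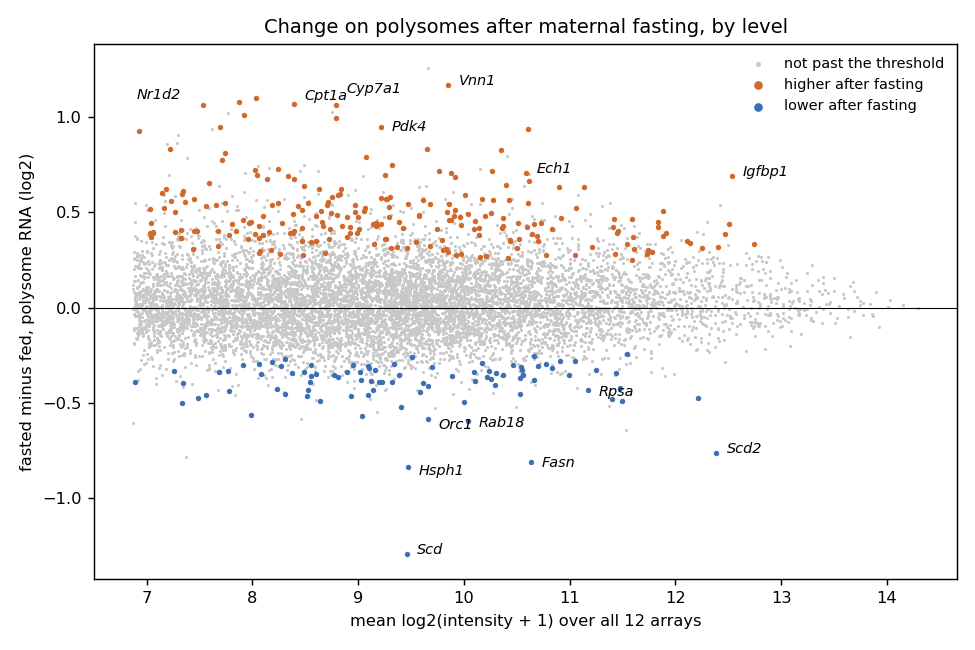
Change on polysomes after maternal fasting (fasted minus fed, log2, vertical axis) against mean log2(intensity + 1) over all 12 arrays (horizontal axis), 1 point per gene tested. The 227 genes past the threshold and higher after fasting are orange, the 91 lower ones blue and all others grey; Scd lies lowest at -1.29 and Vnn1 is the highest called gene at 1.17.

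The count of called genes depended on single arrays. Without fasted polysome 3, 10 genes passed, without fasted polysome 1 or fed polysome 2, 15 each, and without fed polysome 3, 41. Without fed polysome 1 it was 703, and without fasted polysome 2 it was 858. Leaving out a total RNA array gave 180 to 262. Every one of the 318 kept its direction in each of these 12 fits. For the 315 genes whose polysome groups did not overlap, leaving out 1 array could not have changed the direction. Leaving out a total RNA array leaves every polysome change as it was. The number still called was 10 without fasted polysome 3, 14 without fasted polysome 1, 15 without fed polysome 2 and 36 without fed polysome 3. Cpt1a, Ech1, Fasn, Hsph1, Nr1d2, Rab18, Scd and Scd2 passed in all 12, and every other gene named here as having risen or fallen lost its call in at least 1 of them. For the genes described in detail, the highest adjusted p over these 12 fits is given with the gene or as a range over its group.

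**Figure D2:**
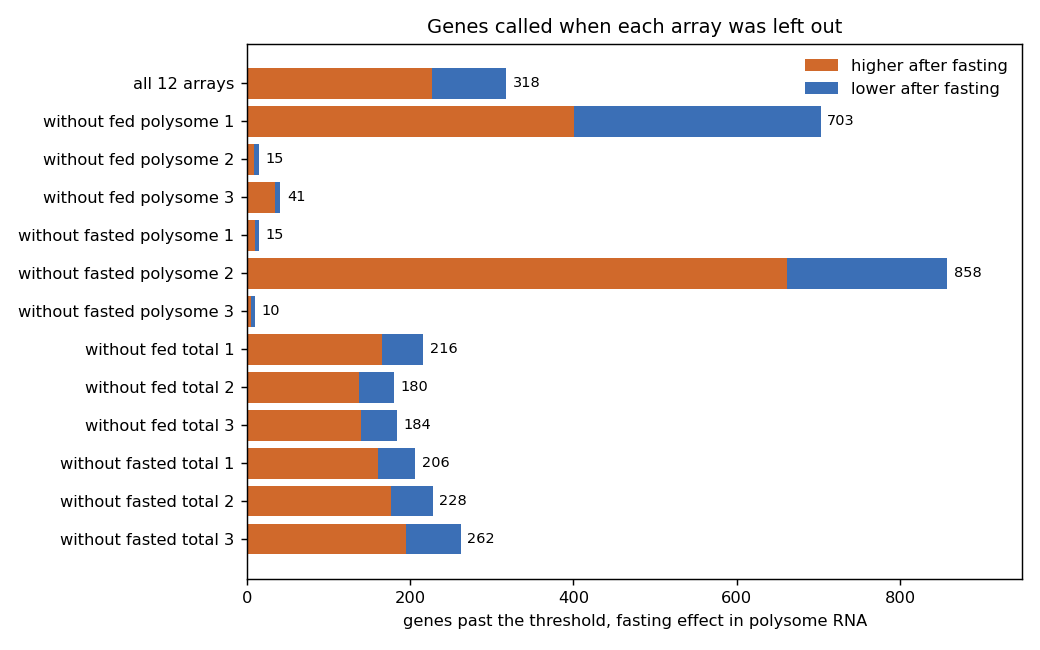
Number of genes past the threshold for fasting on polysomes (horizontal axis) with all 12 arrays and with each array left out in turn; orange marks genes higher and blue genes lower after fasting. The bar for all arrays is at 318, and those without a polysome array run from 10 (without fasted polysome 3) to 858 (without fasted polysome 2).

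Lipogenesis was the group with the largest falls. Of 27 tested genes of fatty acid and triglyceride synthesis, 7 fell and 0 rose, and the median of the list was -0.12 log2. Scd, the stearoyl-CoA desaturase that makes monounsaturated fatty acids, measured 9.75, 9.43 and 9.93 log2 in fed polysome arrays 1 to 3 and 8.69, 8.07 and 8.46 in fasted polysome arrays 1 to 3. All fasted arrays lay below all fed ones, and the fall was 2.45-fold (-1.29 ± 0.16, limma adjusted p = 0.00422). Scd2, a second desaturase of the same family, measured 12.41, 12.46 and 12.53 in fed and 11.85, 11.75 and 11.51 in fasted arrays. It fell 1.70-fold without overlap (-0.76 ± 0.083, limma adjusted p = 0.00375). Fasn, the fatty acid synthase, fell 1.75-fold, from 11.17, 11.03 and 11.21 to 10.40, 10.30 and 10.28 (-0.81 ± 0.099, limma adjusted p = 0.00422). Acaca, the acetyl-CoA carboxylase that makes malonyl-CoA for the synthase, measured 9.58, 9.67 and 9.85 in fed and 9.10, 9.18 and 9.26 in fasted arrays (-0.52 ± 0.089, limma adjusted p = 0.0166).

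The other 3 that fell in this list act on either side of the synthase. Acly, which makes cytosolic acetyl-CoA from citrate, fell 1.25-fold, Mid1ip1, an activator of acetyl-CoA carboxylase, 1.24-fold, and Fads2, a desaturase of polyunsaturated fatty acids, 1.39-fold (limma adjusted p = 0.0354, 0.0414 and 0.0467). None of these 3 overlapped between the diets. Without fasted polysome 1 the limma adjusted p was 0.0763 for Acaca, 0.122 for Acly and 0.142 for Mid1ip1, and without fasted polysome 3 it was 0.136 for Fads2. Without fed polysome 2, fed polysome 3, fasted polysome 1 or fasted polysome 3 only Scd, Scd2 and Fasn of this list passed, and with arrays centred on their median 4 members did. Srebf2, the transcription factor of sterol synthesis, was the 1 member that fell among 23 genes of cholesterol synthesis and uptake. It measured 10.40, 10.34 and 10.36 in fed and 10.03, 10.05 and 10.04 in fasted arrays (-0.33 ± 0.066, limma adjusted p = 0.0256, and 0.102 without fasted polysome 3), and the median of its list was -0.08. Insig1, which holds the sterol regulators in the endoplasmic reticulum, measured -0.10 ± 0.19 and its relative Insig2 0.19 ± 0.091 (limma adjusted p = 0.795 and 0.228).

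Calls in fatty acid oxidation were in the other direction. Of 36 tested genes of oxidation and ketogenesis 4 rose and 0 fell, with a median of 0.15 log2, and 30 of the 36 had a change above 0, as did 55.2% of all genes tested. Cpt1a, the liver carnitine palmitoyltransferase that admits long-chain fatty acids to mitochondria, measured 7.58, 7.95 and 7.92 in fed and 8.77, 8.61 and 9.27 in fasted arrays. The rise was 2.09-fold (1.07 ± 0.16, limma adjusted p = 0.011). Cpt1b, the form best known from muscle, rose 1.99-fold, from 7.96, 8.35 and 8.53 to 8.96, 9.74 and 9.13 (limma adjusted p = 0.0354, and 0.103 without fasted polysome 3). Hadhb, a subunit of the mitochondrial trifunctional protein, rose 1.19-fold (limma adjusted p = 0.0414). Acot12, which hydrolyses acetyl-CoA, rose 1.23-fold (limma adjusted p = 0.0467). Hadhb reached 0.134 without fasted polysome 3 and Acot12 0.166 without fasted polysome 1, and both lost their call under quantile normalization.

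Of 32 tested PPARA targets, 5 rose and 2 fell, and the median was 0.16. Vnn1, a pantetheinase of coenzyme A turnover, had the largest rise of any called gene, from 8.60, 8.84 and 9.07 to 9.58, 10.30 and 10.14, or 2.25-fold (1.17 ± 0.17, limma adjusted p = 0.011, and 0.0536 without fasted polysome 3). Pdk4, the kinase that closes pyruvate dehydrogenase, measured 8.99, 8.92 and 8.42 in fed and 9.53, 9.71 and 9.93 in fasted arrays. It rose 1.93-fold without overlap (limma adjusted p = 0.0196, and 0.0968 without fasted polysome 3). Creb3l3, a liver transcription factor of lipid metabolism, rose 1.38-fold (limma adjusted p = 0.0467, and 0.172 without fasted polysome 1). The pair that fell in this list were G0s2, an inhibitor of triglyceride lipolysis, and Tsku, a secreted proteoglycan, by 1.37-fold and 1.34-fold (limma adjusted p = 0.0414 for both, 0.139 for G0s2 without fasted polysome 1 and 0.116 for Tsku without fasted polysome 3). Outside the lists, Ech1, a dienoyl-CoA isomerase needed for unsaturated fatty acids, rose 1.63-fold, from 10.29, 10.12 and 10.34 to 11.05, 10.93 and 10.90 (0.71 ± 0.094, limma adjusted p = 0.0055). Angptl4, a secreted lipase inhibitor, overlapped between diets at 0.20 ± 0.24 (limma adjusted p = 0.667). Fgf21, the fasting hormone of liver, was too dim to be tested, at a mean of 5.37 log2 in fed and 5.44 in fasted arrays against a filter level of 6.874.

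**Figure D3:**
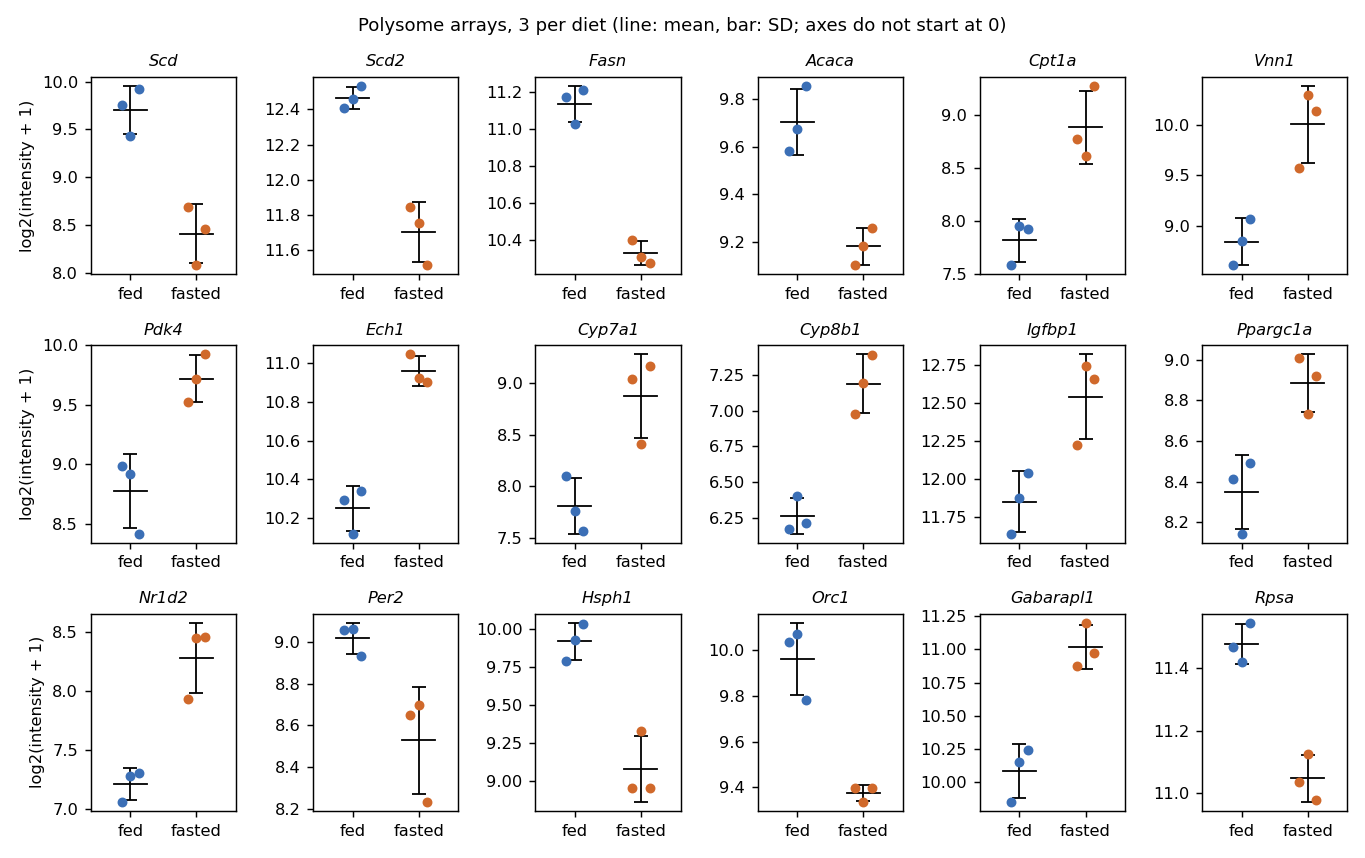
Each polysome array's log2(intensity + 1) (vertical axis, own range per gene, not from 0) for 18 named genes, fed arrays blue and fasted arrays orange, 3 each; lines are means and bars SD. In each of the 18 panels the 3 fasted arrays lie on 1 side of the 3 fed arrays, as for Scd, with fed values from 9.43 to 9.93 and fasted values from 8.07 to 8.69.

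Calls among the enzymes that turn cholesterol into bile acids were all upward. Of 17 tested genes of bile acid synthesis and transport, 4 rose and 0 fell, with a median of 0.12. Cyp7a1, the rate-limiting enzyme of the classical pathway, measured 8.10, 7.75 and 7.57 in fed and 9.04, 8.41 and 9.17 in fasted arrays (2.09-fold, limma adjusted p = 0.0354). Cyp8b1, which directs synthesis to cholic acid, measured 6.17, 6.40 and 6.22 in fed and 6.98, 7.20 and 7.39 in fasted arrays. Its fed values lay under the filter level of 6.874, near the dim end of the arrays, and its rise of 0.92 ± 0.14 had a limma adjusted p of 0.011. Hsd3b7, which acts on the sterol ring, rose 1.45-fold and Cyp27a1, the first enzyme of the acidic pathway, 1.49-fold (limma adjusted p = 0.0188 and 0.0414). These were all enzymes of synthesis. Without fasted polysome 1 the limma adjusted p was 0.134 for Cyp7a1, 0.0884 for Hsd3b7 and 0.122 for Cyp27a1, and without fasted polysome 3 it was 0.0536 for Cyp8b1. Slc10a5, a relative of the bile acid transporters,  fell 1.41-fold (limma adjusted p = 0.0354, and 0.138 without fasted polysome 1).

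Among 28 tested genes of gluconeogenesis and its regulators, 3 rose and 0 fell, with a median of 0.04. Fbp1, the fructose bisphosphatase of glucose production, measured 10.48, 10.30 and 10.33 in fed arrays and a mean of 10.81 in fasted arrays, of which the lowest was 10.62 (1.35-fold, limma adjusted p = 0.0354). Ppargc1a, a coactivator that fasting hormones induce in adult liver, measured 8.41, 8.14 and 8.49 in fed and 9.01, 8.73 and 8.92 in fasted arrays (1.45-fold, limma adjusted p = 0.0421). The third was Creb3l3. Without fasted polysome 1 the limma adjusted p was 0.13 for Fbp1 and 0.157 for Ppargc1a, and 0 members of the list passed without fed polysome 2, fed polysome 3, fasted polysome 1 or fasted polysome 3. G6pc1, the glucose 6-phosphatase, was at 6.88, 7.57 and 6.68 in fed and 7.29, 7.52 and 9.12 in fasted arrays. Its mean difference of 0.93 ± 0.41 came with overlapping groups and rested on fasted polysome 3 (limma adjusted p = 0.189). Pck1, the carboxykinase of the pathway, was too dim to be tested, at means of 5.98 and 6.12. Among 39 genes of glycolysis and glycogen, Pdk4 and Pfkfb1, the kinase and phosphatase that sets fructose 2,6-bisphosphate, rose, the latter 1.21-fold (limma adjusted p = 0.0382, and 0.138 without fasted polysome 1).

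The window of 250 bases before the start of Ppargc1a is shown because it holds a palindrome of the kind bound by the cAMP-responsive factors of fasting, TGACGTCA, in capitals. RefSeq places it at chr14:63634058-63634307 on the plus strand of GRCr8, the 5′ flank of the gene.
Ppargc1a: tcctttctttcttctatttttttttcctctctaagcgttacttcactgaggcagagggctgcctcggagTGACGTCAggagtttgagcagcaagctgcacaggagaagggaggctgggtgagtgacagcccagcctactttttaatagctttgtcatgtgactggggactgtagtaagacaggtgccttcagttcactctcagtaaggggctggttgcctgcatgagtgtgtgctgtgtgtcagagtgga
The same letters, which read alike on both strands, were in 1.7% of the 27457 windows of this length in the table and in 2.86% of those of genes tested. They were in 5 of the 190 called higher genes that had a window (2.63%) and in 0 of the 78 called lower genes. The match describes the sequence and was not tested as a site.

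Genes held down by insulin and raised by FoxO factors included 4 that rose among 30 tested, with 0 that fell and a median of 0.17. They were Gabarapl1, Pdk4, Igfbp1 and Ppargc1a. Igfbp1, a secreted protein that binds insulin-like growth factors and keeps them from their receptor, measured 11.64, 11.87 and 12.04 in fed and 12.22, 12.74 and 12.65 in fasted arrays. It rose 1.61-fold without overlap (0.69 ± 0.14, limma adjusted p = 0.0304, and 0.113 without fasted polysome 3). It was also the only called member of the 26 tested genes of the IGF and growth hormone axis, whose median of 0.02 was that of all genes. Igfbp2, a related binding protein, measured 0.49 ± 0.19 with overlap (limma adjusted p = 0.148). The growth factors themselves measured 0.22 ± 0.11 for Igf1 and -0.20 ± 0.063 for Igf2, the latter with all fasted arrays lower (limma adjusted p = 0.233 and 0.0892). Foxo1 measured 0.03 ± 0.11 (limma adjusted p = 0.88), and Irs2 was not analysed here.

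Hormone-responsive genes overlapped with these. Of 25 glucocorticoid-responsive genes, Igfbp1 and Zbtb16 rose, with a list median of 0.17. Zbtb16, a zinc finger repressor that glucocorticoids induce, measured 7.97, 8.05 and 7.93 in fed and 8.62, 8.58 and 8.81 in fasted arrays (1.61-fold, limma adjusted p = 0.0215, and 0.104 without fasted polysome 3). Among 20 p53 targets 1 rose, Tp53inp1, which links stress to autophagy (1.48-fold, limma adjusted p = 0.035, and 0.122 without fasted polysome 1). Cdkn1a, the cell cycle inhibitor p21, measured 0.48 ± 0.14 with all fasted arrays higher but did not pass (limma adjusted p = 0.0789), and Cdkn1b, its relative p27, measured 0.11 ± 0.077 (limma adjusted p = 0.443).

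Autophagy and lysosome regulation held the most called members of any list, with 7 of 44 higher and 1 lower and a median of 0.12. Gabarapl1, an autophagosome protein of the ATG8 family, rose from 9.85, 10.15 and 10.24 to 10.88, 11.20 and 10.97 (1.91-fold, limma adjusted p = 0.0166). Calcoco1, an autophagy receptor, measured 8.61, 8.64 and 8.91 in fed and 9.31, 9.18 and 9.26 in fasted arrays (1.44-fold, limma adjusted p = 0.012). Lamp2, a membrane protein of lysosomes, rose 1.34-fold, from 11.09, 11.11 and 11.14 to 11.64, 11.48 and 11.49 (limma adjusted p = 0.0166). The others that rose were Tp53inp1, the conjugation enzyme Atg10 (1.32-fold), the ATG8 family member Gabarapl2 (1.25-fold) and the lysosomal protease Ctsl (1.46-fold), at limma adjusted p of 0.035, 0.0414 and 0.0444 for the last 3. Pik3r4, a regulatory subunit of the lipid kinase that starts autophagosomes, fell 1.28-fold (limma adjusted p = 0.0444). Gabarapl2 rested on the brighter of a pair of probes, and the dimmer one measured 0.03 ± 0.12. Without fasted polysome 1, fasted polysome 3 or fed polysome 2, 0 members passed. The limma adjusted p then reached 0.0709 for Gabarapl1, 0.058 for Calcoco1, 0.0721 for Lamp2, 0.117 for Atg10, 0.142 for Gabarapl2, 0.138 for Ctsl and 0.168 for Pik3r4. Macrophages are rich in lysosomes, and the sum of macrophage markers was higher in the same arrays, with values given further on. The part of macrophages in the lysosomal changes was not tested.

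Of 37 genes that restrain growth 2 rose and 0 fell, and the median was 0.17. Mxi1, which opposes MYC at its target genes, measured 9.78, 9.75 and 9.80 in fed and 10.38, 10.09 and 10.56 in fasted arrays (1.48-fold, limma adjusted p = 0.0166). Its second probe measured 0.32 ± 0.087. Ypel3, a growth suppressor, rose 1.39-fold, from 9.86, 9.93 and 9.71 to 10.37, 10.20 and 10.36 (limma adjusted p = 0.0196). In 16 of the 37 genes all fasted arrays lay above all fed ones, against 13.3% of all genes. Without fasted polysome 3 the limma adjusted p was 0.0779 for Mxi1 and 0.0909 for Ypel3.

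Members of the circadian clock changed in both directions, 3 higher and 2 lower of 19 tested, with a median of 0.01. Nr1d2, the repressor REV-ERB beta, rose 2.09-fold, from 7.06, 7.28 and 7.30 to 7.93, 8.44 and 8.46 (1.06 ± 0.13, limma adjusted p = 0.00422). Its close relative Nr1d1 was too dim to be tested, at means of 6.01 in fed and 6.87 in fasted arrays. A pair of repressors of the other loop, Cry1 and Per2, fell. Cry1 measured 9.06, 9.05 and 9.24 in fed and 8.77, 8.65 and 8.64 in fasted arrays, and Per2 9.06, 9.06 and 8.93 in fed and 8.65, 8.70 and 8.23 in fasted arrays (limma adjusted p = 0.0352 and 0.0438). Clock, the activator that these proteins repress, rose 1.36-fold and Csnk1e, a kinase that marks PER proteins for decay, 1.24-fold (limma adjusted p = 0.0418 and 0.0372). Of these 5 genes, Nr1d2 alone kept its call in all 12 leave-one-out fits; limma adjusted p reached 0.117 for Cry1 and 0.136 for Per2 without fasted polysome 3, and 0.161 for Clock and 0.133 for Csnk1e without fasted polysome 1. Per1, a relative of Per2, and Dbp, an output of the clock, measured 0.01 ± 0.086 and 0.25 ± 0.12 (limma adjusted p = 0.976 and 0.225).

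Of 46 tested chaperones of the heat shock response, 3 fell and 0 rose, the median was -0.11 and 13 had all fasted arrays below all fed ones (9.23% of all genes). Hsph1, a nucleotide exchange factor for HSP70, measured 9.79, 9.93 and 10.04 in fed and 8.95, 9.33 and 8.96 in fasted arrays. It fell 1.79-fold (-0.84 ± 0.11, limma adjusted p = 0.00627). Fkbp4, an HSP90 cochaperone of steroid receptors, measured 10.47, 10.31 and 10.33 in fed and 10.04, 9.96 and 9.95 in fasted arrays (-0.39 ± 0.089, limma adjusted p = 0.0366, and 0.121 without fasted polysome 3). Dnaja4, an HSP40 cochaperone, fell 1.38-fold (limma adjusted p = 0.0467, and 0.164 without fasted polysome 1). Hspa8, the constitutive HSP70, measured -0.15 ± 0.074 with overlap (limma adjusted p = 0.233).

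The windows of 250 bases before the starts of Hsph1 and Fkbp4 are shown because both carry the letters of a heat shock element. Such elements are the sites of the heat shock factors. Dnaja4, the other chaperone that fell, had no such letters in its window, which is not shown. Capitals mark GAANNTTC and TTCNNGAA, searched on both strands, and in the second run of Hsph1 the 2 forms overlap. Both windows are 5′ flanks from RefSeq on GRCr8, at chr12:10427118-10427367 on the plus strand and chr4:163397919-163398168 on the minus strand.
Hsph1: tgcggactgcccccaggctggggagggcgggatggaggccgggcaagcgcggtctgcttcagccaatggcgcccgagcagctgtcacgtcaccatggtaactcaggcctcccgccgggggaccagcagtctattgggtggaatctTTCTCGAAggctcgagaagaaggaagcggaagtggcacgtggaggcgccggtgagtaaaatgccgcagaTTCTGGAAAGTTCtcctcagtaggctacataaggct
Fkbp4: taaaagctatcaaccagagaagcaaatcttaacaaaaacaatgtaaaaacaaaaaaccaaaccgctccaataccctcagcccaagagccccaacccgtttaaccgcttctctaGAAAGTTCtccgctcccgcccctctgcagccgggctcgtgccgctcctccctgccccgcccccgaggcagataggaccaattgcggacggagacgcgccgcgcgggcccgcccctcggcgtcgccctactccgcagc
GAANNTTC was in 7.02% and TTCNNGAA in 7.23% of all windows of this length, and in 4.65% and 6.03% of those of genes tested. Among the 78 called lower genes with a window, each form was in 4 (5.13%), and among the 190 called higher genes in 11 (5.79%) and 6 (3.16%). The matches were not tested as sites.

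In the endoplasmic reticulum, 2 of 53 folding and unfolded protein response genes fell, Srp19, a subunit of the signal recognition particle, by 1.33-fold and Uggt1, the glucosyltransferase that tags misfolded glycoproteins, by 1.28-fold (limma adjusted p = 0.0421 and 0.0496; 0.138 for Srp19 without fasted polysome 3 and 0.179 for Uggt1 without fasted polysome 1). The calls made up 3.77% of this list, against 3.66% of all genes tested, and its median was -0.02. Of 47 genes of the ATF4 amino acid response, 10 had all fasted arrays above all fed ones and 0 had all below. Over all genes tested these shares were 13.3% and 9.23%. The median of the list was 0.09, and 0 members passed in limma, against 3.66% of all genes tested. The nearest were Trib3, a pseudokinase induced by stress (0.73 ± 0.22), Herpud1, a membrane protein of protein degradation (0.46 ± 0.14), and Eif4ebp1, the translational repressor that mTORC1 inactivates (0.36 ± 0.12), with limma adjusted p of 0.0788, 0.0811 and 0.0966. Asns, the asparagine synthetase, measured 0.20 ± 0.069, Atf4 itself -0.02 ± 0.11 and Ddit4, an inhibitor of mTORC1, 0.20 ± 0.11 (limma adjusted p = 0.11, 0.934 and 0.285).

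A pair of ribosomal protein messages fell on polysomes. Of 72 tested cytosolic ribosomal proteins, these 2 fell and 0 rose, and the median was -0.05. The calls made up 2.78% of the list, where 3.66% of all genes tested were called and 1.05% were called lower. In 18 members all fasted arrays lay below all fed ones and in 1 all above, against 9.23% and 13.3% of all genes tested. Rpsa, of the small subunit, measured 11.47, 11.42 and 11.55 in fed and 11.04, 11.13 and 10.98 in fasted arrays. It fell 1.35-fold without overlap (-0.43 ± 0.074, limma adjusted p = 0.0166, and 0.0817 without fasted polysome 3), and its second probe measured -0.34 ± 0.10. Rps12, also of the small subunit, fell from 11.41, 11.76 and 11.91 to 11.12, 11.31 and 11.19 (-0.49 ± 0.11, limma adjusted p = 0.035, and 0.123 without fasted polysome 1). Its 3 dimmer probes measured -0.41, -0.42 and -0.69. Both genes have processed copies in many genomes, which array probes may not separate. The 2 were the only ribosomal protein calls, and 0 passed without fed polysome 2, fed polysome 3, fasted polysome 1 or fasted polysome 3.

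Other messages that carry a pyrimidine tract at their start and follow mTORC1 had 1 called member of 25, Eif4a2, a helicase of translation initiation, which fell 1.34-fold (limma adjusted p = 0.033, and 0.12 without fasted polysome 1). Eef1a1, the elongation factor that is the best known of this class, measured 0.02 ± 0.065 (limma adjusted p = 0.883). Among 39 genes of the mTORC1 pathway 0 passed in limma, and the nearest were Mtor, the kinase (-0.26 ± 0.078), Mknk1, a kinase of the cap-binding protein (0.28 ± 0.088), and Eif4ebp2, a repressor of that protein (-0.26 ± 0.082), with limma adjusted p of 0.0796, 0.0841 and 0.0861. The 32 aminoacyl-tRNA synthetases likewise held 0 calls, with Sars1, Vars1 and Qars1 nearest at limma adjusted p of 0.143, 0.143 and 0.151. Of 87 ribosome biogenesis factors 2 fell, Bysl by 1.23-fold and Ebna1bp2 by 0.38 on the log2 scale (limma adjusted p = 0.0315 and 0.0417, and up to 0.11 and 0.142 without fasted polysome 3 or 1). Bysl and Ebna1bp2 act in the maturation of ribosomal subunits in the nucleolus. The dimmer probe of Ebna1bp2 measured -0.20 ± 0.14, and this gene lost its call with the mean of its probes. The median of the list was -0.11, and 23 members had all fasted arrays lower, against 9.23% of all genes tested. Calls in this list numbered 16 without fed polysome 1, 7 without fasted polysome 2 and 21 without both, and 0 without fed polysome 2, fed polysome 3, fasted polysome 1 or fasted polysome 3. Of 68 mitochondrial ribosomal proteins 1 rose, Mrpl23 (1.31-fold, limma adjusted p = 0.0304, and 0.113 without fasted polysome 1). That was 1.47% of the list, against 3.66% of all genes tested.

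Calls made up 2.94% of the tested replication genes, all of them lower, and 1.79% of the mitosis genes, all higher. Of all genes tested 3.66% were called, 2.61% higher and 1.05% lower. Of 68 genes of DNA replication and G1/S, 2 fell, with a median of -0.09. In 18 of the 68 all fasted arrays lay below all fed ones and in 2 above. Over all genes tested these shares were 9.23% and 13.3%. Orc1, the largest subunit of the origin recognition complex, measured 10.04, 10.07 and 9.78 in fed and 9.39, 9.34 and 9.40 in fasted arrays (-0.59 ± 0.095, limma adjusted p = 0.0146, and 0.0593 without fasted polysome 3). Mcm6, part of the replicative helicase, fell 1.28-fold (limma adjusted p = 0.0414, and 0.154 without fasted polysome 1). Of 56 genes of mitosis and G2/M 1 rose, Nusap1, a spindle protein, by 1.31-fold (limma adjusted p = 0.0346, and 0.122 without fasted polysome 1), and the median was 0.05. Ccnd1, the G1 cyclin, measured 0.09 ± 0.086 (limma adjusted p = 0.585). In nucleotide synthesis, Cad, which starts pyrimidine synthesis, fell 1.37-fold and Ctps2, a CTP synthase, rose 1.35-fold (limma adjusted p = 0.0304 and 0.0166; 0.108 for Cad without fasted polysome 1 and 0.0779 for Ctps2 without fasted polysome 3). Of 44 proteasome genes, the core subunits Psma7 and Psma5 fell 1.26-fold and 1.28-fold (limma adjusted p = 0.0418 and 0.0467), and neither passed without fasted polysome 1 (0.159 and 0.169) or with arrays centred on their median.

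Of 33 tested genes that mark the maturing hepatocyte, 5 rose and 0 fell, with a median of 0.10. Besides Cyp7a1 and Cyp8b1 these were Acy3, an aminoacylase, from 7.18, 6.93 and 7.28 to 8.24, 7.69 and 8.30 (1.93-fold), Kmo, an enzyme of tryptophan breakdown (1.36-fold), and Gnmt, the glycine methyltransferase (1.48-fold). Their limma adjusted p were 0.012, 0.0215 and 0.0363, and without fasted polysome 1 those of Kmo and Gnmt were 0.0884 and 0.139. The adjusted p of Acy3 was 0.0593 without fasted polysome 3. Kmo and Gnmt, with Asl, the argininosuccinate lyase of the urea cycle (1.51-fold, limma adjusted p = 0.0467), were also the 3 that rose among 56 genes of the urea cycle and amino acid catabolism, where the median was 0.09; Asl had 0.138 without fasted polysome 1. Of 35 liver transcription factors, Hnf4g, Creb3l3 and Onecut1 rose, Hnf4g by 1.46-fold and Onecut1 by 1.37-fold (limma adjusted p = 0.0256 and 0.0476; 0.11 and 0.168 without fasted polysome 3). The 22 conjugation enzymes of phase II had the highest median of any list, 0.25, but 0 passed in limma. Fasted arrays all lay higher for 12 of these enzymes, against 13.3% of all genes tested. Gstm4, Sult1a1 and Gstm3 came nearest to the threshold (0.34 ± 0.089, 0.26 ± 0.070 and 1.02 ± 0.29, limma adjusted p = 0.0533, 0.0547 and 0.0625). Plasma carriers had 0 calls among 31.

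**Figure D4:**
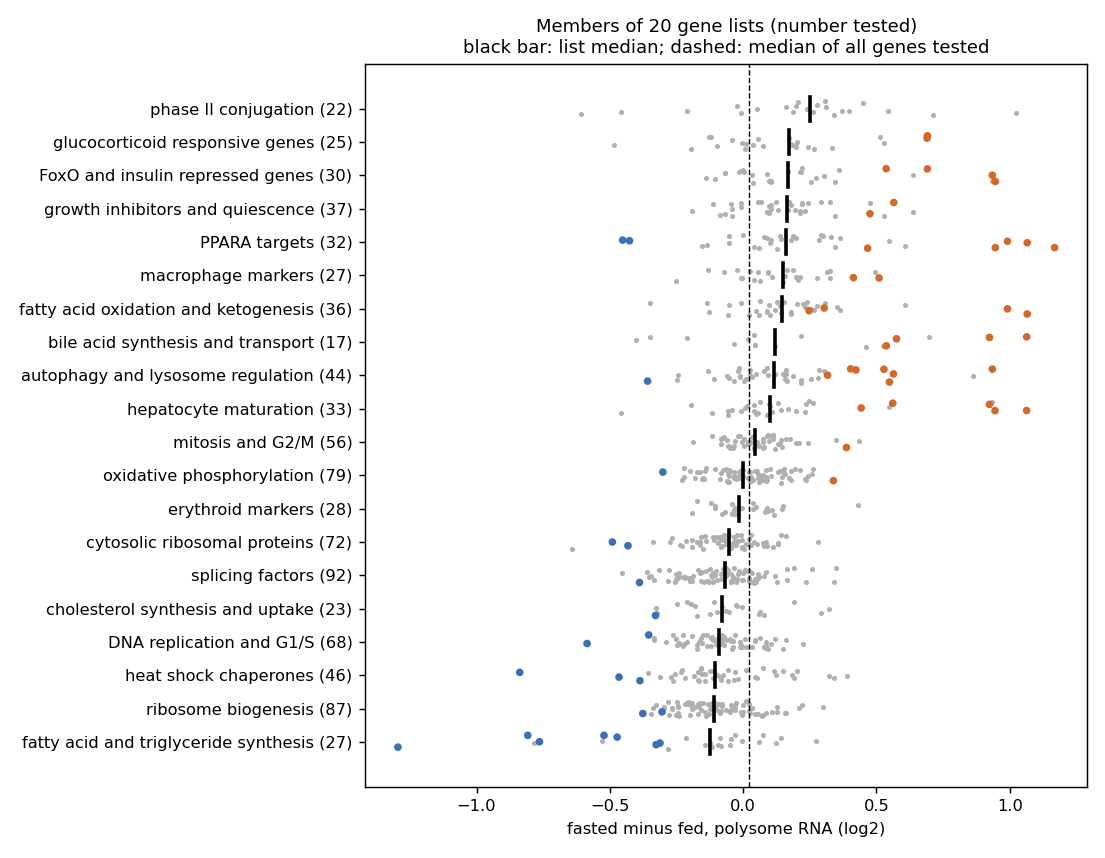
Change on polysomes (fasted minus fed, log2, horizontal axis) of the tested members of 20 gene lists, 1 point per gene, with members past the threshold in orange (higher) or blue (lower), the list median as a black bar and the median of all genes tested as a dashed line at 0.02. List medians run from 0.25 for phase II conjugation to -0.12 for fatty acid and triglyceride synthesis, and most members are grey.

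Summed markers of some other cell types lay apart between diets, though single markers often overlapped. Macrophage markers summed to 2657 to 2806 in fed and 3228 to 3273 in fasted polysome arrays, and 1 of the 6 defining markers passed, Cd68, a lysosomal glycoprotein, from 9.29, 9.27 and 9.18 to 9.67, 9.55 and 9.75 (1.33-fold, limma adjusted p = 0.0215). Of the other defining markers, Cd163 did not overlap between diets, and Csf1r, Marco, Clec4f and Vsig4 did. In the wider list of 27 macrophage genes, C1qb, a complement subunit that macrophages make, rose as well (1.42-fold, limma adjusted p = 0.0354), and the median was 0.15. Neither passed without fasted polysome 1 or 3, at up to 0.107 for Cd68 and 0.131 for C1qb. Megakaryocyte markers went the other way, at 3119 to 3306 in fed and 2249 to 2786 in fasted arrays, with 0 of 3 tested defining markers called; Pf4, the platelet factor, measured -0.45 ± 0.13 (limma adjusted p = 0.0758). In the wider list of 14, Thbs1, a platelet adhesion protein that other cells also make, fell 1.28-fold (limma adjusted p = 0.0467, and 0.171 without fasted polysome 3), and lost its call with same-numbered arrays of 1 diet as a random block. Endothelial markers summed to 2952 to 3130 in fed and 3170 to 3529 in fasted arrays, with 0 of 5 tested defining markers called. The brightest, Lyve1, overlapped, at 10.87, 10.74 and 10.65 in fed and 11.10, 10.85 and 10.98 in fasted arrays. Pecam1, Kdr and Esam overlapped too, and Cdh5 did not. In the wider endothelial list Fcgr2b, an Fc receptor of sinusoidal endothelium, rose 1.48-fold (limma adjusted p = 0.0352, and 0.119 without fed polysome 2). Sums for neutrophil, B lymphoid, stellate, cholangiocyte and pancreatic markers overlapped between diets. Of 28 stellate and mesenchymal genes, Dcn, the matrix proteoglycan decorin, rose 1.68-fold, from 7.92, 7.63 and 7.96 to 8.66, 8.55 and 8.54, and Lrat, which esterifies retinol for storage, 1.27-fold (limma adjusted p = 0.0196 and 0.0355, and 0.0884 and 0.126 without fasted polysome 1). The part of these cells in other changes was not tested.

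Many of the largest changes belonged to none of these groups. Among the rises, Doc2a, a calcium sensor of vesicle fusion, measured 7.29, 7.79 and 7.71 in fed and 8.83, 8.90 and 8.37 in fasted arrays (2.14-fold, limma adjusted p = 0.0355). Cdkl1, a kinase related to the cyclin-dependent kinases, rose 2.11-fold and Rnf186, a RING-type ubiquitin ligase, 2.01-fold (limma adjusted p = 0.0172 and 0.035). Smaller rises among the 25 largest were those of Prtfdc1 (1.77-fold), Chmp4c, of the membrane-cutting ESCRT machinery (0.83 ± 0.13, with fed arrays averaging 6.78, below the filter), Glyatl2, a glycine acyltransferase (1.78-fold, groups overlapping), Aspa, the aspartoacylase (1.76-fold), Qpct, the glutaminyl cyclase (1.73-fold), Krt23, a keratin (1.71-fold), Sert1 (1.65-fold), Sat2, of the polyamine acetyltransferase family (1.65-fold), Fxyd1, a regulator of the sodium pump (1.64-fold), Aph1b, of gamma-secretase (1.64-fold), and Gpnmb, a glycoprotein of lysosome-rich cells (1.63-fold). Each of these had a limma adjusted p of 0.0467 or less. Without fasted polysome 1 none of these 14 passed, at limma adjusted p from 0.058 for Sert1 to 0.175 for Glyatl2.

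Among the falls, Rab18, a GTPase of lipid droplets and the endoplasmic reticulum, measured 10.49, 10.63 and 10.74 in fed and 10.01, 9.95 and 10.11 in fasted arrays (1.51-fold, limma adjusted p = 0.00422). That value came from the brighter probe, whereas the second measured 0.17 ± 0.099, and the mean of both gave a limma adjusted p of 0.149. Plxna2, a semaphorin receptor, measured 9.23, 9.21 and 9.19 in fed and 8.71, 8.57 and 8.64 in fasted arrays (1.48-fold, limma adjusted p = 0.0166, and 0.0779 without fasted polysome 3). Bccip, a BRCA2 partner, fell 1.48-fold, the ubiquitin ligase Herc2 1.41-fold, Micos10, which shapes mitochondrial cristae, 1.39-fold, the receptor Epha1 1.39-fold, the efflux pump Abcc4 1.38-fold, the stem cell factor Kitlg 1.37-fold, the mitochondrial ion exchanger Letm1 1.37-fold, the phosphatase receptor Ptprf 1.36-fold and Nxpe3 1.36-fold. These 9 had limma adjusted p from 0.0166 for Letm1 to 0.0438 for Micos10. The 3 probes of Abcc4 measured -0.46, -0.35 and -0.33. Kitlg reached an adjusted p of 0.119 without fed polysome 2, and the others reached 0.0779 (Letm1) to 0.165 (Micos10) without fasted polysome 1 or 3.

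The fasting effect on polysomes was set beside that in total RNA from the same fit. In total RNA 141 genes passed in limma (1.62% of 8698), 99 higher (1.14%) and 42 lower (0.483%). The difference between the effects was tested gene by gene. It was past the threshold for 0 genes (0%), with 500 at an unadjusted p under 0.05 and a smallest limma adjusted p of 0.799. The SE of a difference had a median of 0.13, so small departures could not be seen. Many of the genes with the largest changes on polysomes were changed in total RNA too. Scd measured -1.29 ± 0.16 on polysomes and -1.52 ± 0.16 in total RNA, and the 95% interval of the difference was -0.27 to 0.73. Fasn measured -0.81 and -0.89 (interval -0.22 to 0.38), Hsph1 -0.84 and -0.91 (-0.27 to 0.42), Cpt1a 1.07 and 1.27 (-0.69 to 0.28), Ech1 0.71 and 0.69 (-0.27 to 0.30) and Nr1d2 1.06 and 0.89 (-0.23 to 0.57). Scd2 measured -0.76 and -0.49, with an interval of -0.52 to -0.02.

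Other genes that rose or fell on polysomes had smaller effects in total RNA. Rpsa measured -0.43 on polysomes and 0.02 in total RNA (difference -0.45, 95% interval -0.68 to -0.22, unadjusted p = 0.000856), and Rps12 measured -0.49 and -0.14 (interval -0.68 to -0.03). Rab18 measured -0.60 and -0.11 (interval -0.71 to -0.26), Clock 0.44 and 0.04 (0.08 to 0.73), Ndufv2, a flavoprotein subunit of complex I, 0.34 and -0.05 (0.18 to 0.60), Dcn 0.74 and 0.26 (0.06 to 0.91) and Lamp2 0.42 and 0.19 (0.02 to 0.45). Cnot7, a deadenylase subunit, measured 0.54 and -0.02 and Mfap2, of elastic microfibrils, 0.44 and -0.05; both were singled out after their values were seen. Each of these genes was called on polysomes and had an unadjusted p under 0.05 for the difference. Their intervals therefore leave out 0 by selection and support nothing about a difference. In no case did the adjusted test pass. Of the 318 called genes, 72 had an unadjusted p under 0.05 for the difference, but they were chosen on the polysome contrast, which is a part of that difference, so the count supports nothing about it. The labels do not state whether polysome and total RNA arrays come from the same livers. Within a diet, deviations from group means correlated at 0.162 to 0.366 for same-numbered arrays and at -0.258 to -0.0211 for different-numbered ones. Deviations sum to 0 within a group, so the negative values follow from the positive ones and add no support for a pairing by number. The SE and intervals above leave this pairing out. With same-numbered arrays of 1 diet as a random block, the difference had 0 calls and 856 genes at an unadjusted p under 0.05 in limma, and with same-numbered arrays subtracted, 1 call (Cpa1) and 810.

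**Figure D5:**
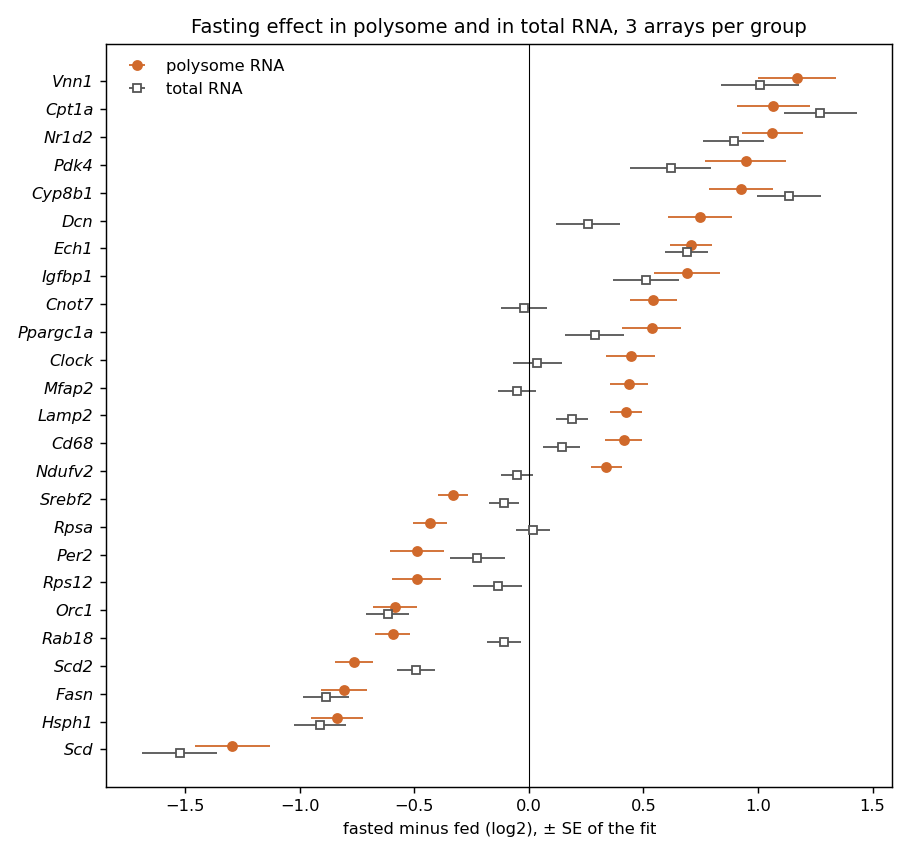
Fasting effect (fasted minus fed, log2, horizontal axis) of 25 named genes in polysome RNA (filled orange circles) and in total RNA (open squares), with bars of 1 SE of the fit and 3 arrays per group. Scd, Hsph1, Fasn and Orc1 have overlapping bars in the 2 fractions, and Rpsa, Rab18, Ndufv2 and Cnot7 have total RNA values between -0.11 and 0.02.

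The threshold cut through a continuous range of values. Just inside it lay Capn15 at -0.30 and Peli2 at 0.46 (limma adjusted p = 0.0497), and just outside it Lrrc47 at -0.26 and Hnrnpa1 at -0.35 (0.0502).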

How the data were processed

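RNA of fetal liver was hybridised by the authors to 12 Affymetrix Rat Gene 1.0 ST arrays in 4 groups of 3. Per the submitters' processing notes the authors used RMA, with no version given in the sources used here, and the deposited intensities, 1 per probe and array, start at 3.62 on a linear scale. Tests used log2(value + 1). Of 28826 probes, 15209 had exactly 1 gene symbol in the platform table, 306 had several and 13311 were not listed; the first stood for 14497 genes, and the brightest probe over all 12 arrays was used for the 494 genes with several. Genes at or above the 40th percentile of gene means (6.874 log2) were tested, 8698 in all, without 5799 dimmer ones. Group means of the 4 groups were modelled with limma 3.58.1 in R 4.3.3, with 8 residual and 5.168 prior degrees of freedom. Two-sided p-values were adjusted over all genes tested (Benjamini-Hochberg, threshold 0.05). The script was checked on simulated data.

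Array numbers were not taken as pairs across diets, since deviations of same-numbered fed and fasted polysome arrays correlated at -0.0811 to 0.353. Within a diet, same-numbered polysome and total RNA arrays correlated at 0.162 to 0.366 in every pair, so they were taken as paired by these data, not by the labels, and fits with that pairing are given beside the difference test. The members, the gene lists and the rules were chosen with earlier results of these data known, so lists have counts and medians but no test. Named were the 25 largest rises and falls past the threshold, called members of each list (at most 10, or the nearest 3 where none was called), and a fixed set of growth, fuel, clock and stress genes. Alternatives were other filters, normalizations, probe rules and priors, no added 1, replicate blocks, the polysome arrays alone, no moderation and leaving out each array. A filter at the 40th percentile of all probes and a fit without both fed polysome 1 and fasted polysome 2 were added after seeing the data. Upstream windows came from a RefSeq table of GRCr8 and were found for 7317 of the 8698 genes. Sequence searches and plots used Python 3.11.15 (matplotlib 3.10.9).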

Additional observations from a re-analysis of the deposited data

How the results depend on the processing

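All 318 genes called on polysomes kept their direction under every alternative in which they were tested. In the fits that left out arrays this was fixed in advance for the 315 genes whose polysome groups did not overlap. The number called was 93 without the filter on dim genes, 205 with the filter at the 40th percentile of all probes, 40 with only the 6 polysome arrays, 49 without moderation of the spread (27 higher, 22 lower), and 10 to 858 over the fits that left out 1 array. A fit without both fed polysome 1 and fasted polysome 2 gave 1349, of which 283 were among the 318. This pair was chosen after seeing the data, and leaving out either array alone gave 703 and 858. The spread of fasted polysome 2 around its group mean, 0.128, was near the 0.127 of fed polysome 3, without which 41 passed. The number called was 349 with the stricter filter, 255 with arrays centred on their median, 319 with quantile normalization, 311 with the mean of a gene's probes, 318 with no added 1 and 409 with trend and robust priors. With centred arrays the lower calls numbered 39, against 91 in the main fit. Named falls that lost their call there included Acly, Mid1ip1, Fads2, Tsku, Pik3r4, Dnaja4, Srp19, Uggt1 and Ebna1bp2. Also lost were Mcm6, Psma5, Psma7, Thbs1, Bccip, Micos10, Nxpe3, Atp5me and Tkt. Among named rises, Acot12, Onecut1 and Ncoa2 lost theirs. With the replicate number as a fixed block 421 genes passed, and with same-numbered arrays of 1 diet as a random replicate block 331, of which 307 were among the 318 and Thbs1 was the only named gene to lose its call; same-numbered arrays of different diets share only a number. The cause of these moves was not tested. The difference between the effects on polysomes and in total RNA had 0 calls in every setting except 2. The replicate block by subtraction of same-numbered arrays gave 1, Cpa1, a pancreatic protease gene that measured 0.13 on polysomes and -1.98 in total RNA (limma adjusted p = 0.0108). The fit without both arrays gave 3, Cfap20, Med28 and Meg3. Scd, Scd2, Fasn, Hsph1, Ech1 and Nr1d2 passed in every fit in which they were tested, and Nr1d2 was below the stricter filter. Of 57 lists, 32 had a median above that of all genes, and 30 to 39 did over the alternatives. Precision is limited by 3 arrays per group, with a median SE of 0.092 against a median absolute change of 0.42 among called genes.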

Other observations

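Smaller groups outside the report's themes held scattered calls. Their counts stand beside 3.66% of all genes tested, with 2.61% called higher and 1.05% called lower. Of 14 polyamine genes, Sat1 and Sat2 rose, the first the acetyltransferase that starts polyamine breakdown, from 8.22, 8.57 and 8.39 to 8.91, 8.83 and 8.95 log2 (1.42-fold, limma adjusted p = 0.0214, and 0.102 without fasted polysome 3); the list median was -0.01. Of 13 tested genes of vesicle release 3 rose, Doc2a, the SNARE protein Vamp2 (1.34-fold) and its partner Stxbp3 (1.25-fold), at limma adjusted p of 0.0422 and 0.0392 for the last pair, and 0 passed without fed polysome 2, fed polysome 3, fasted polysome 1 or fasted polysome 3. Of 20 imprinted growth genes, Sgce, a sarcoglycan, rose 1.49-fold beside Dcn (limma adjusted p = 0.0196, and 0.0884 without fasted polysome 1). Among complement and coagulation genes, C8g, a subunit of complement C8, rose 1.29-fold beside C1qb (limma adjusted p = 0.0438, and 0.165 without fasted polysome 1), the 2 of 48 that passed. Cyp2t1 was the 1 of 20 cytochrome P450 genes that rose (1.62-fold, limma adjusted p = 0.0355, and 0.138 without fasted polysome 1). Of 33 nuclear receptors and coregulators, Ncoa2, a steroid receptor coactivator, rose 1.20-fold beside Nr1d2 and Ppargc1a (limma adjusted p = 0.0467, and 0.168 without fasted polysome 3). Of 40 antioxidant genes, Tkt, the transketolase of the pentose phosphate pathway, fell 1.19-fold beside Abcc4 (limma adjusted p = 0.0415, and 0.136 without fasted polysome 3), and Ncoa2 and Tkt lost their calls with arrays centred on their median. Slc25a17, a peroxisomal carrier, was the 1 of 33 mitochondrial carrier family members that rose (1.28-fold, limma adjusted p = 0.0196, and 0.0886 without fasted polysome 3).

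In mitochondrial energy metabolism, calls made up 2.53% of oxidative phosphorylation genes and 4.35% of TCA cycle genes, against 3.66% of all genes tested. In 15 of the 79 oxidative phosphorylation genes all fasted arrays lay higher and in 4 all lower. Over all genes tested these shares were 13.3% and 9.23%. Of 79 oxidative phosphorylation genes, Ndufv2 rose 1.26-fold, from 11.96, 11.97 and 11.94 to 12.36, 12.17 and 12.36, and Atp5me, a subunit of the ATP synthase, fell 1.23-fold (limma adjusted p = 0.0293 and 0.0438), while the list median was near 0. Of 23 genes of the TCA cycle, Suclg2, a succinyl-CoA ligase subunit, rose 1.31-fold (limma adjusted p = 0.0354). All 3 lost their call without fasted polysome 3, and limma adjusted p reached 0.113 for Ndufv2, 0.155 for Atp5me and 0.138 for Suclg2 over the fits without 1 array, and Atp5me lost its call also with arrays centred on their median. Of 92 splicing factors 1 fell, Hnrnph3 (1.31-fold, limma adjusted p = 0.035, and 0.122 without fasted polysome 1), with a median of -0.07; 15 were called without fed polysome 1 and 9 without fasted polysome 2. Erythroid genes had 0 calls among 28 and a median of -0.02. Limma likewise called 0 of 24 apolipoprotein, 28 amino acid transporter, 36 iron and heme, 19 histone and 22 immediate early genes. Of all 8698 genes tested, 3.66% were called.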
